A study of Mus musculus with 10 samples.

Results

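Glutathione peroxidases and ferroptosis regulators were followed through 9 genes: the peroxidase genes Gpx1, Gpx3, Gpx4, Gpx7 and Gpx8, and Acsl4, Lpcat3, Aifm2 and Ptgs2. They were taken by gene symbol from the 55858 genes of the deposited table, all 9 were found, and 8 passed the filter on low values. The series concerns ESCRT, a membrane-cutting machinery, in the formation of cardiac T-tubules. RNA came from whole mouse hearts at postnatal day 10. The cKO group (5 mice) received tamoxifen under the skin at 0.1 mg/g on 2 days from postnatal day 0, which was meant to delete Chmp4b, a subunit gene of ESCRT-III. The control group (5 mice) received corn oil. All 10 mice had the genotype labelled MCM; Chmp4bF/F, so the controls carried the same alleles, and tamoxifen itself and the deletion cannot be told apart. The labels do not spell out MCM or say in which cells Chmp4b is deleted.

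Glutathione peroxidases reduce peroxides with electrons from glutathione. GPX4 is the member that acts on lipid hydroperoxides inside membranes, and ferroptosis is an iron-dependent cell death in which such peroxides build up. ACSL4 and LPCAT3 place polyunsaturated fatty acids into phospholipids, the substrate of that peroxidation, and AIFM2 (also called FSP1) counters it without glutathione by regenerating a lipid-soluble radical trap. PTGS2, an inducible prostaglandin synthase, is widely read as a transcript marker of ferroptosis. In mouse hearts ferroptosis is known from doxorubicin and ischaemia models.

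The 5 peroxidase genes differ at the codon of their reactive residue. The coding stretches around that codon, in capitals, are shown because they separate the selenoenzymes from the cysteine enzymes among the genes that are compared below. They were read from the GENCODE M21 transcript with the longest coding sequence of each gene (GRCm38).
Gpx1: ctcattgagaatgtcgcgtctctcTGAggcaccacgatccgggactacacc
Gpx3: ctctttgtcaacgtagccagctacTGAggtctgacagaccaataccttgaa
Gpx4: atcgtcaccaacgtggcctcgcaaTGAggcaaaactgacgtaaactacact
Gpx7: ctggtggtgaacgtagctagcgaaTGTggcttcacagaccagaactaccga
Gpx8: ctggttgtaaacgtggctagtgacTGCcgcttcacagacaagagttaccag
In Gpx1 (chr9:108339427-108339477, plus strand), Gpx3 (chr11:54907232-54908542, plus strand, with an intron inside) and Gpx4 (chr10:80054713-80054763, plus strand) the codon is TGA, a stop codon that is read as selenocysteine in these messages. It stands at codon 47 of 201, 73 of 226 and 129 of 253. In Gpx7 (chr4:108403406-108403456, minus strand) and Gpx8 (chr13:113045637-113045687, minus strand) it is TGT and TGC, both cysteine codons, at codon 56 of 186 and 79 of 209. No TGA lies in frame inside the coding sequence of either gene.

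TPM, the length-scaled transcript abundance, closes each library to 1000000, and the share held by mitochondrially encoded transcripts was 39.4% ± 2.34 in cKO hearts, and 55.4% ± 3.96 in the control hearts (SD, n = 5 each; exact permutation test p = 0.00794, the smallest for 5 against 5). The median log2 difference of all 13282 tested genes was 0.63 in TPM as deposited, and 0.01 once each library was divided by a median-of-ratios factor. Both scales are given, the second as "relative to the median gene" or "on the median-gene scale". TPM keeps no read depth, so no counting error could be set on any value, and which of the scales is nearer to amounts per cell was not measured. Chmp4b TPM was 38.2 ± 1.42 in cKO hearts, and 47.4 ± 8.61 in the control hearts, with overlap, and relative to the median gene 29.5 ± 1.38 in cKO hearts, and 60.8 ± 6.51 in the control hearts, without overlap (SD, n = 5 each; exact permutation p = 0.0476 and 0.00794). Ddx3y, a Y-linked gene, was present in 2 of 5 cKO and 5 of 5 control libraries, and Xist in the other 3 cKO libraries and 0 control libraries, so by these genes 3 cKO mice were female and all controls male.

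In cKO hearts the RNA of all 5 peroxidase genes and of Acsl4 was higher on both scales, Lpcat3 was higher in TPM as deposited, Aifm2 was lower relative to the median gene, and Ptgs2 stayed under 1 TPM in every library. In whole hearts, fewer cells of a type and less RNA per cell cannot be told apart. In TPM as deposited, limma called 7 of the 8 tested members higher and 0 lower (also 0 lower at an unadjusted p under 0.05), where 76.5% of all tested genes were called higher and 3.46% lower. Relative to the median gene it called 6 higher and 1 lower, where 20.8% of all tested genes were called higher and 20.8% lower. The groups did not overlap for 7 members as deposited, all higher in cKO, where 62.5% of all tested genes lay higher and 1.92% lower in every cKO library. Relative to the median gene they did not overlap for 5 members higher and 1 lower in cKO, where 15.8% of all tested genes lay higher and 15.5% lower in every cKO library. Without the 3 cKO libraries with Xist the counts were 7 higher and 0 lower as deposited, and 4 higher and 1 lower relative to the median gene. In that setting 67.3% of all tested genes were called higher and 2.32% lower as deposited, and 12.6% higher and 13.6% lower relative to the median gene. A gene was called at a limma adjusted p (Benjamini-Hochberg, all tested genes) under 0.05, fold changes are on the scale of log2(value + 1), and nothing in the labels says which mice share a litter.

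**Figure D1:**
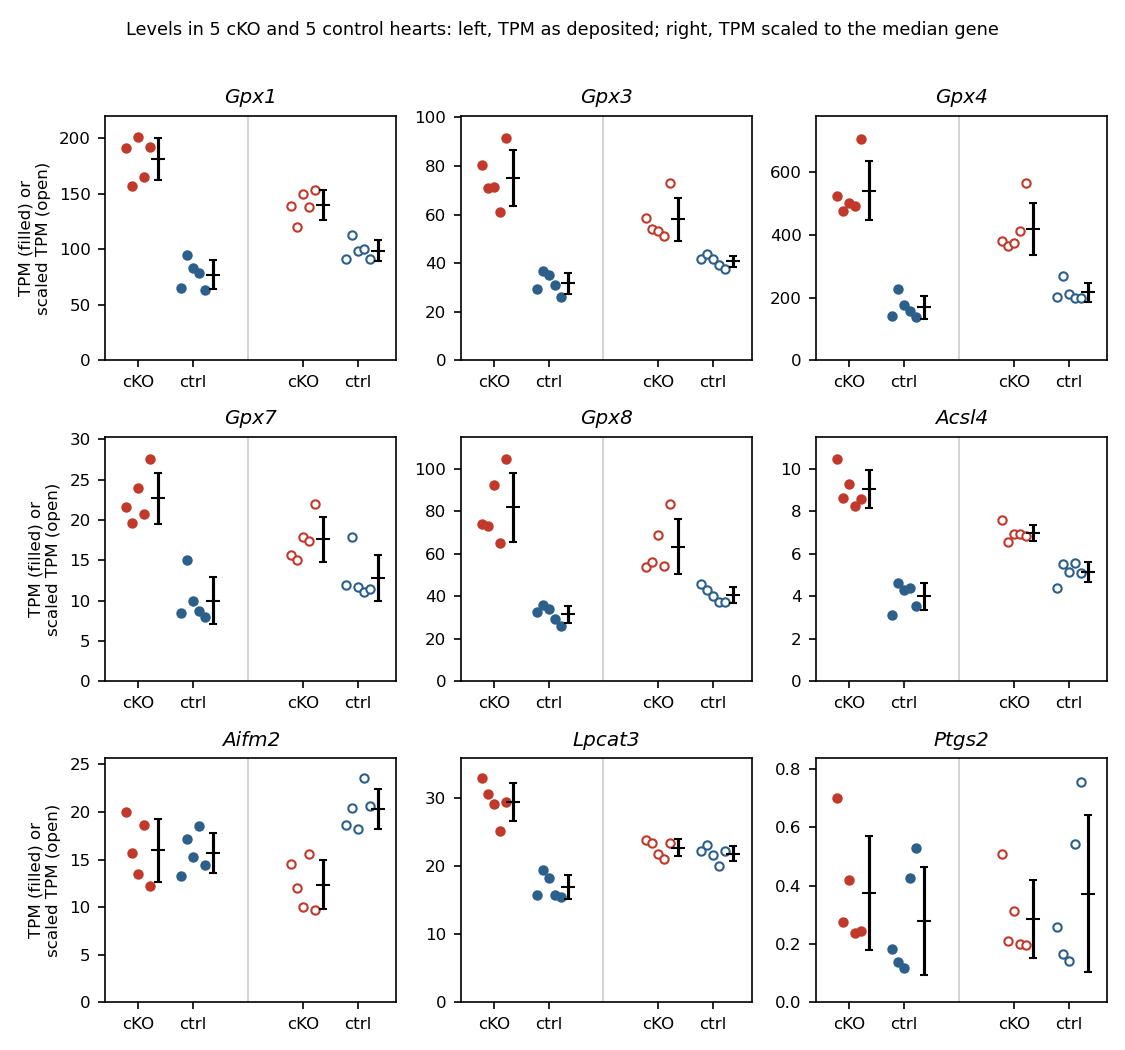
Level of each of the 9 genes in every library, as TPM (filled points, left of the grey line) and as TPM scaled to the median gene (open points, right of it), with cKO in red left of control in blue and the mean ± SD (n = 5) in black. Gpx4 lies at 478 to 707 TPM in cKO and 139.5 to 228 TPM in control hearts, whereas Aifm2 overlaps between groups in TPM and lies lower in all 5 cKO libraries after scaling.

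Gpx4 (ENSMUSG00000075706.12, chr10:80047166-80056439, plus strand), the membrane lipid peroxidase, was the most abundant of the 9 genes in both groups and changed most. It had 525, 478, 504, 494 and 707 TPM in cKO replicates 1, 3, 5, 6 and 7, against 143, 228, 178, 158 and 139.5 TPM in control replicates 4, 6, 8, 9 and 13. The groups did not overlap, and the lowest cKO library lay well above the highest control library. The log2 difference was 1.68 ± 0.15 (SE; 3.21-fold; limma adjusted p = 7.94e-07). Scaled to the median gene, Gpx4 averaged 419.9 ± 83.0 in cKO hearts, and 216.9 ± 30.7 in the control hearts (SD, n = 5 each), again without overlap, a log2 difference of 0.94 ± 0.13 (SE; limma adjusted p = 0.000121). Of all tested genes, 3.76% had a larger log2 difference on that scale. Mitochondrial, cytosolic and nuclear forms of GPX4 come from this gene and are summed in its value. The pseudogenes Gpx4-ps2 and Gpx4-ps1 averaged 1.44 and 0.237 TPM over all libraries, and reads shared with them could not be resolved.

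Gpx1 (ENSMUSG00000063856.9, chr9:108338903-108340343, plus strand) encodes the ubiquitous peroxidase of cytosol and mitochondria that reduces hydrogen peroxide. It had 191, 157, 200.4, 165 and 192 TPM in cKO replicates 1, 3, 5, 6 and 7, against 65.0, 95.01, 82.8, 78.8 and 63.3 TPM in control replicates 4, 6, 8, 9 and 13. Every cKO library lay above every control library. The log2 difference was 1.23 ± 0.12 (SE; limma adjusted p = 2.04e-06) as deposited and 0.50 ± 0.08 (SE; limma adjusted p = 0.000532) relative to the median gene, where the groups also did not overlap.

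Gpx3 (ENSMUSG00000018339.13, chr11:54902453-54910377, plus strand) encodes the secreted peroxidase of plasma. Its TPM was 80.6, 70.9, 71.2, 61.2 and 91.6 in cKO replicates 1, 3, 5, 6 and 7, and 29.5, 36.8, 35.1, 30.9 and 26.2 in control replicates 4, 6, 8, 9 and 13. Again the groups were apart. It rose by 1.215 ± 0.12 on the log2 scale (SE; limma adjusted p = 2.33e-06), and by 0.49 ± 0.09 relative to the median gene (SE; limma adjusted p = 0.00129), close to the change of Gpx1.

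Gpx7 and Gpx8 encode the cysteine peroxidases of the endoplasmic reticulum, where peroxide arises during oxidative protein folding. Gpx8 (ENSMUSG00000021760.6, chr13:113042753-113046410, minus strand) had 74.1, 73.3, 92.3, 65.0 and 104.5 TPM in cKO replicates 1, 3, 5, 6 and 7, against 32.7, 36.1, 34.0, 29.4 and 25.9 TPM in control replicates 4, 6, 8, 9 and 13. The groups did not overlap on either scale, and the log2 difference was 1.33 ± 0.13 (SE; limma adjusted p = 2.47e-06) as deposited and 0.61 ± 0.12 (SE; limma adjusted p = 0.00182) relative to the median gene. Gpx8 lies within Cdc20b on the opposite strand, which is listed at 0 TPM in every library.

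Gpx7 (ENSMUSG00000028597.12, chr4:108400390-108406961, minus strand) had 21.6, 19.6, 23.98, 20.8 and 27.6 TPM in cKO replicates 1, 3, 5, 6 and 7, against 8.51, 15.1, 9.91, 8.68 and 7.98 TPM in control replicates 4, 6, 8, 9 and 13. Control replicate 6 stood above the other controls but below every cKO library. The log2 difference was 1.13 ± 0.15 (SE; limma adjusted p = 2.46e-05). After scaling to the median gene, control replicate 6, at 17.9, lay inside the cKO range of 14.99 to 22.01, and the log2 difference was 0.44 ± 0.14 (SE; limma adjusted p = 0.0226). That call was lost under 5 settings, in which the adjusted p was 0.0542 without control replicate 9, 0.0512 without control replicate 13, 0.0558 with no filter on low values, 0.130 with Ddx3y as a covariate and 0.207 without the 3 cKO libraries with Xist (limma).

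Among themselves the peroxidase genes did not rise in step. The 5 genes summed to 902 ± 131 TPM in cKO hearts, and 319.6 ± 58.8 TPM in the control hearts (SD, n = 5 each). Gpx4 made up 56.5% to 63.0% of that sum in cKO libraries, and 51.3% to 55.5% in the controls. The share of Gpx1 was 17.1% to 22.5% in cKO libraries, and 23.1% to 25.8% in the controls. Neither of these overlapped between groups, and such shares do not depend on how a library is scaled. The 5 shares add up to the whole, so the larger share of Gpx4 leaves less for the others, and the shares are not separate results. The share of Gpx7 was 2.42% to 2.69% in cKO libraries, and 2.84% to 3.67% in the controls, again without overlap, while the shares of Gpx3 and Gpx8 overlapped. Gpx2, Gpx5 and Gpx6, the peroxidase genes outside the chosen set, reached at most 0.103 TPM in any library and were not tested.

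Acsl4 (ENSMUSG00000031278.13, chrX:142317993-142390535, minus strand) encodes the acyl-CoA synthetase that activates arachidonic and other polyunsaturated fatty acids. It had 10.5, 8.61, 9.26, 8.27 and 8.57 TPM in cKO replicates 1, 3, 5, 6 and 7, against 3.12, 4.64, 4.32, 4.39 and 3.57 TPM in control replicates 4, 6, 8, 9 and 13. All cKO libraries were higher on both scales. The log2 difference was 1.01 ± 0.11 (SE; limma adjusted p = 4.68e-06) as deposited and 0.38 ± 0.08 (SE; limma adjusted p = 0.00183) relative to the median gene. Acsl4 is X-linked, and against the male controls the male cKO replicates 3 and 6 had 6.57 and 6.91 relative to the median gene, above the highest control value of 5.59. With only those 2 cKO libraries the log2 difference was 0.33 (limma adjusted p = 0.0529), so the call was lost.

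Lpcat3 (ENSMUSG00000004270.14, chr6:124663027-124704418, plus strand) encodes an acyltransferase that inserts polyunsaturated acyl chains into lysophospholipids. Its TPM was 33.0, 30.6, 29.1, 25.1 and 29.4 in cKO replicates 1, 3, 5, 6 and 7, and 15.8, 19.5, 18.2, 15.8 and 15.5 in control replicates 4, 6, 8, 9 and 13. These groups did not overlap, and the log2 difference was 0.76 ± 0.10 (SE; limma adjusted p = 1.56e-05), near the 0.63 of the median gene. On the scaled values Lpcat3 averaged 22.7 ± 1.25 in cKO hearts, and 21.9 ± 1.14 in the control hearts (SD, n = 5 each), with overlap. The log2 difference was then 0.05, with a 95% confidence interval of -0.08 to 0.19 (limma adjusted p = 0.529). With TPM closed again over genes that are not mitochondrially encoded, a scale on which the median gene stood at 0.28, it was called at 0.34 (limma adjusted p = 0.00253).

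Aifm2 (ENSMUSG00000020085.16, chr10:61715263-61739260, plus strand), the glutathione-independent suppressor, was the 1 member lower in cKO hearts relative to the median gene. It had 20.0, 15.7, 13.5, 18.6 and 12.2 TPM in cKO replicates 1, 3, 5, 6 and 7, against 13.3, 17.2, 15.3, 18.5 and 14.4 TPM in control replicates 4, 6, 8, 9 and 13. In TPM the groups overlapped throughout, the log2 difference was 0.01 (95% confidence interval -0.29 to 0.31; limma adjusted p = 0.950), and its sign changed between settings. Scaled to the median gene, Aifm2 stood at 14.5, 12.0, 10.1, 15.6 and 9.76 in the same cKO libraries, against 18.6, 20.4, 18.2, 23.5 and 20.7 in the control libraries. Every cKO library was then lower than every control library, and Aifm2 fell by 0.69 ± 0.13 on the log2 scale (SE; limma adjusted p = 0.00108). Of all tested genes, 7.92% had a lower log2 difference. It also fell with TPM closed over genes that are not mitochondrially encoded (log2 difference -0.42; limma adjusted p = 0.0239).

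The annotation places other genes on the opposite strand at the ends of Aifm2 and Lpcat3, and reads there could not be assigned without the strand setting of the counting, which is not given in the sources used here. H2afy2 overlaps Aifm2 by 596 bases and had 10.4 ± 1.18 TPM in cKO hearts, and 4.95 ± 0.506 TPM in the control hearts (SD, n = 5 each). Emg1 overlaps Lpcat3 by 334 bases and had 51.1 ± 3.95 TPM in cKO hearts, and 34.3 ± 5.22 TPM in the control hearts (SD, n = 5 each). Their part in the values of Aifm2 and Lpcat3 was not tested.

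Ptgs2 (ENSMUSG00000032487.9, chr1:150100031-150108227, plus strand) had 0.700, 0.275, 0.420, 0.238 and 0.246 TPM in cKO replicates 1, 3, 5, 6 and 7, against 0.183, 0.140, 0.119, 0.428 and 0.528 TPM in control replicates 4, 6, 8, 9 and 13. The groups overlapped, with the highest value in cKO replicate 1 and the next in control replicate 13. It did not reach the filter of 1 TPM in 5 libraries. Tested with no filter, its log2 difference was 0.11 as deposited and -0.08 on the median-gene scale (limma adjusted p = 0.525 and 0.717), so neither direction was established at this level.

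**Figure D2:**
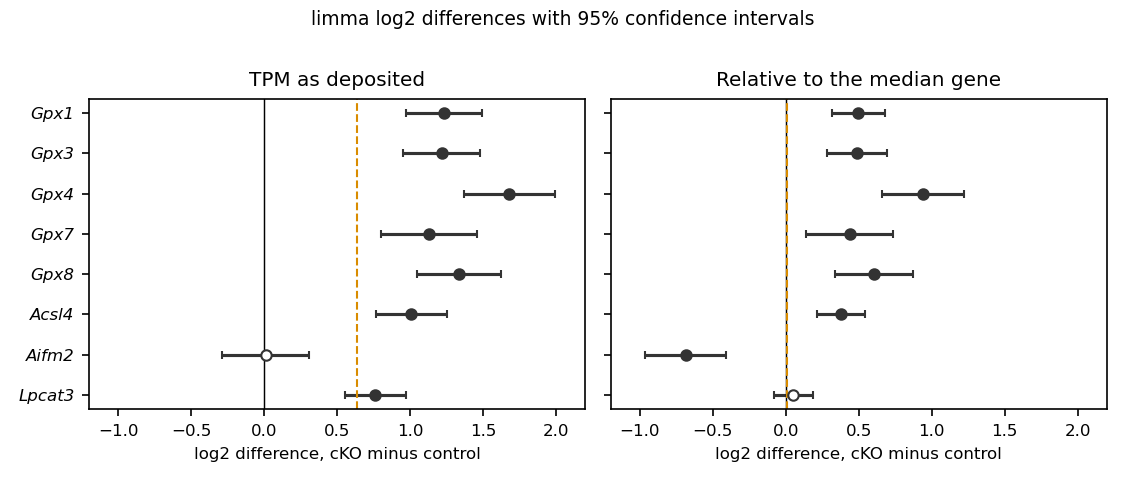
log2 difference (cKO minus control) of the 8 tested genes with 95% confidence intervals from limma, in TPM as deposited (left) and relative to the median gene (right). Filled points were called at an adjusted p under 0.05, and the dashed line marks the median of all 13282 tested genes (0.63 and 0.01). All peroxidase genes lie to the right of that line on both scales, Aifm2 to the left of it.

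Ordered by TPM, which is per transcript length, the cKO hearts ran Gpx4, Gpx1, Gpx8, Gpx3, Lpcat3, Gpx7, Aifm2, Acsl4 and Ptgs2. In cKO hearts the ranges of Gpx8 and Gpx3, of Lpcat3 and Gpx7, and of Gpx7 and Aifm2 overlapped, and the other neighbours were apart. The control hearts ran Gpx4, Gpx1, Gpx3, Gpx8, Lpcat3, Aifm2, Gpx7, Acsl4 and Ptgs2. In control hearts Gpx3 and Gpx8 (means 31.7 and 31.6 TPM), Lpcat3 and Aifm2, and Aifm2 and Gpx7 overlapped. Gpx7 and Aifm2 thus stood in reverse order in the group means, with Gpx7 at 22.7 ± 3.14 TPM and Aifm2 at 16 ± 3.30 TPM in cKO, and Gpx7 at 10.03 ± 2.90 TPM and Aifm2 at 15.7 ± 2.11 TPM in control hearts (SD, n = 5 each).

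Ratios of 2 genes within a library do not depend on its scaling, apart from the pseudocount of 1 in the test, and 3 were compared. Acsl4, on the side that builds the oxidisable lipid, amounted to 1.21% to 1.99% of the TPM of Gpx4 in cKO libraries and 2.04% to 2.78% in control libraries. The ratio was lower in all 5 cKO libraries, by 0.67 on the log2 scale of (TPM + 1) (exact permutation test, two-sided, p = 0.00794, adjusted p = 0.0119 over 3 pairs). Part of that size comes from the pseudocount, which weighs more on the low values of Acsl4. With a pseudocount of 0.1 the log2 difference in TPM was 1.163 for Acsl4 and 1.686 for Gpx4. With the pseudocount of 1 it was 1.009 and 1.68, so the ratio without a pseudocount fell by less than 0.67. Gpx1 amounted to 27.1% to 39.8% of Gpx4 in cKO libraries, and 41.7% to 49.9% in the controls, a log2 difference of -0.45 (exact permutation p = 0.00794, adjusted p = 0.0119). Both ratios are taken over Gpx4. Of all tested genes, 97.2% had a smaller log2 difference than Gpx4 as deposited, and so a lower mean log2 ratio to it in cKO. The 2 results are thus not particular to Acsl4 or Gpx1. Gpx7 amounted to 26.0% to 32.0% of Gpx8 in cKO libraries, and 26.1% to 41.7% in the controls, with overlap (log2 difference -0.20; exact permutation p = 0.0952). Without the 3 cKO libraries with Xist the first 2 differences were -0.61 and -0.47, and their adjusted p was 0.0714 each with 2 libraries against 5 (exact permutation test). Before adjustment both p-values were the smallest that 2 against 5 allows, so the loss of the call does not show a weaker difference.

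**Figure D3:**
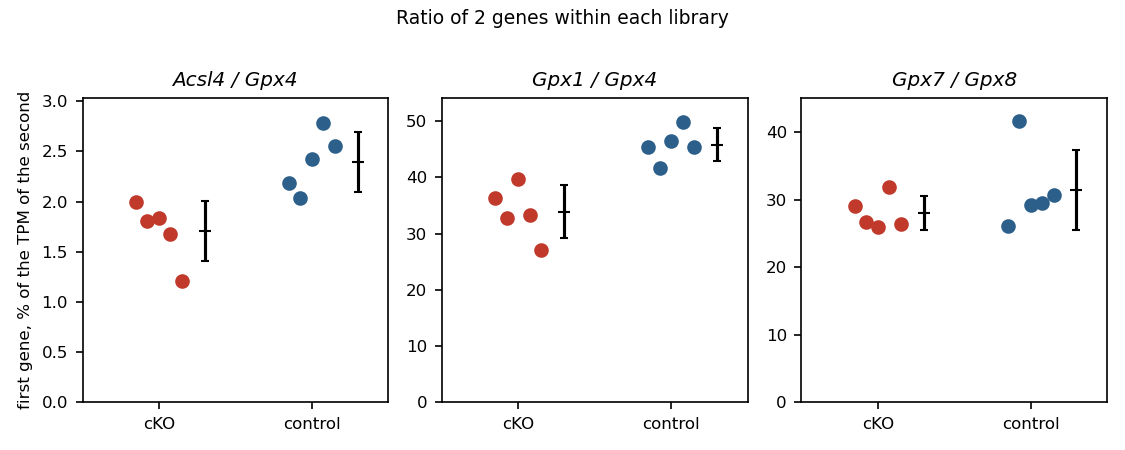
TPM of the first gene as a percentage of the TPM of the second in each library, cKO (red) left of control (blue), with mean ± SD (n = 5 each) in black. Acsl4/Gpx4 and Gpx1/Gpx4 lie lower in all 5 cKO libraries, and Gpx7/Gpx8 overlaps between groups.

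Of other genes known to defend against ferroptosis, 9 of 17 tested rose and 5 fell on the median-gene scale, with a median log2 difference of 0.26, beside 20.8% of all tested genes each way. As deposited 14 rose and 0 fell (median 0.91), beside 76.5% and 3.46% of all tested genes, and these shares apply to each gene list below. The smallest p-values among the rises were those of Txnrd1, a selenoprotein that reduces thioredoxin, the ferritin light chain gene Ftl1, which stores iron, and the small heat shock protein gene Hspb1. Txnrd1 had 129 ± 17.9 TPM in cKO hearts, and 15.5 ± 1.32 TPM in the control hearts (SD, n = 5 each) and rose by 2.26 on the median-gene scale (limma adjusted p = 6.01e-09). Ftl1 had 1045 ± 141 TPM in cKO hearts, and 249.5 ± 30.5 TPM in the control hearts, and Hspb1 had 417 ± 55.4 TPM in cKO hearts, and 125 ± 17.2 TPM in the control hearts (SD, n = 5 each). On the scaled values their rises were 1.32 and 0.99 (limma adjusted p = 5.11e-07 and 2.97e-06). The 5 defence genes that fell on that scale were Gch1 (-0.78), Coq2 (-0.54), Dhodh (-0.41), Slc3a2 (-0.22) and Nfe2l2 (-0.22). As deposited, Gch1, Coq2 and Dhodh were not called, and Slc3a2 and Nfe2l2 were called higher. Without the 3 cKO libraries with Xist, 5 defence genes rose and 4 fell. With TPM closed over genes that are not mitochondrially encoded 2 fell, beside 1373 of all 13264 tested genes.

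Glutathione supply genes rose in 6 of 8 tested members relative to the median gene, with 2 lower and a median log2 difference of 0.86, and in 7 of 8 as deposited with 0 lower. Gclm, the regulatory subunit of the first enzyme of glutathione synthesis, had 99.1 ± 12.7 TPM in cKO hearts, and 9.07 ± 0.834 TPM in the control hearts (SD, n = 5 each). Pgd, a source of NADPH, had 160 ± 20.7 TPM in cKO hearts, and 18.2 ± 1.98 TPM in the control hearts, and Gsr, which recycles oxidised glutathione for the peroxidases, had 39.4 ± 5.43 TPM in cKO hearts, and 7.29 ± 1.31 TPM in the control hearts (SD, n = 5 each). On the scaled values these 3 rose by 2.60, 2.35 and 1.60 (limma adjusted p = 3.42e-09, 6.55e-09 and 1.22e-06), more than any of the peroxidase genes. The cystine carrier gene Slc7a11, named after its values were seen, did not pass the filter and had 0.365 to 0.746 TPM in cKO libraries, and 0.0659 to 0.423 TPM in the controls, with overlap.

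Of genes that promote lipid peroxidation or iron release, 6 of 18 tested rose and 5 fell on the median-gene scale (median -0.07), beside 20.8% of all tested genes each way. As deposited 15 rose and 0 fell (median 0.56). Hmox1, the heme oxygenase that frees iron from heme, had 26.1 ± 3.70 TPM in cKO hearts, and 6.63 ± 0.344 TPM in the control hearts (SD, n = 5 each) and rose by 1.13 on the median-gene scale (limma adjusted p = 2.06e-06). Alox5ap, a helper of 5-lipoxygenase found in leukocytes, had 9.003 ± 1.28 TPM in cKO hearts, and 2.68 ± 0.516 TPM in the control hearts (SD, n = 5 each) and rose there by 0.84 (limma adjusted p = 9.26e-05). Elovl5, which elongates polyunsaturated fatty acids, fell by 0.62 on that scale (limma adjusted p = 7.95e-05) while its TPM overlapped, at 17.6 ± 1.24 in cKO hearts, and 16.6 ± 1.93 in the control hearts (SD, n = 5 each). Without the 3 cKO libraries with Xist, 4 promoting genes rose and 2 fell.

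The selenoprotein synthesis list held genes of the selenocysteine machinery, which Gpx1, Gpx3 and Gpx4 need for their TGA codon. It also held the selenoprotein P gene Selenop and the receptor genes Lrp8 and Lrp1, which are outside that machinery. Relative to the median gene, 3 of its 13 tested genes rose, 1 fell and 9 were not called (median 0.00), and 12 rose and 1 fell as deposited. Of the machinery genes only Trnau1ap rose on that scale, by 0.29 (limma adjusted p = 0.0329). Pstk, a kinase of selenocysteine tRNA loading, fell by 1.218 relative to the median gene, with 35.4 ± 3.42 TPM in cKO hearts, and 50.2 ± 3.07 TPM in the control hearts (SD, n = 5 each; limma adjusted p = 5.38e-06). Lrp8, a receptor for selenoprotein P, and Lrp1, a receptor of the same family, rose on that scale by 1.88 and 0.80 (limma adjusted p = 2.73e-05 and 0.000253). Lrp8 had 2.40 to 7.20 TPM in cKO libraries, and 0.117 to 0.169 TPM in the controls. Of 14 other selenoprotein genes tested, 4 rose, 1 fell and 9 were not called on that scale (median 0.12), and 13 rose and 1 fell as deposited. Txnrd1, given above, led the rises. Dio2, a thyroid hormone deiodinase, had 3.19 ± 0.228 TPM in cKO hearts, and 0.914 ± 0.0429 TPM in the control hearts (SD, n = 5 each) and rose by 0.66 on the median-gene scale (limma adjusted p = 5.13e-05). Msrb1, a methionine sulfoxide reductase, fell on both scales, with 42.3 ± 6.98 TPM in cKO hearts, and 59.3 ± 5.83 TPM in the control hearts (SD, n = 5 each) and a log2 difference of -1.21 on the median-gene scale (limma adjusted p = 1.39e-05). With TPM closed over genes that are not mitochondrially encoded, 7 of the 13 selenoprotein synthesis genes and 10 of the 14 other selenoprotein genes were called higher. On that scale 6064 of all 13264 tested genes were called higher and the median gene stood at 0.28, so these counts are not particular to selenoprotein genes.

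Oxidative folding genes of the endoplasmic reticulum, the compartment of GPX7 and GPX8, rose in 6 of 10 members relative to the median gene and 4 were not called (median 0.40), and all 10 rose as deposited. P4hb, the protein disulfide isomerase that GPX7 and GPX8 can oxidise, had 164 ± 17.6 TPM in cKO hearts, and 63.2 ± 8.75 TPM in the control hearts (SD, n = 5 each) and rose by 0.63 on the median-gene scale (limma adjusted p = 1.05e-05). Qsox1, a sulfhydryl oxidase, rose there by 0.93 and Pdia4, another disulfide isomerase, by 0.44 (limma adjusted p = 3.65e-05 and 0.000204).

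While Ptgs2 stayed under 1 TPM, 9 of 11 other tested prostaglandin genes rose and 1 fell on the median-gene scale (median 0.78), and 10 rose and 0 fell as deposited. They are genes of synthesis and reception, apart from Hpgd, whose enzyme inactivates prostaglandins and which is among the rises. Hpgds, a prostaglandin D synthase, had 4.64 ± 1.17 TPM in cKO hearts, and 0.445 ± 0.0761 TPM in the control hearts, and Tbxas1, the thromboxane synthase, had 2.77 ± 0.254 TPM in cKO hearts, and 0.434 ± 0.191 TPM in the control hearts (SD, n = 5 each). The prostaglandin E receptor gene Ptger4 had 6.56 ± 0.984 TPM in cKO hearts, and 1.17 ± 0.223 TPM in the control hearts (SD, n = 5 each). On the scaled values the 3 genes rose by 1.52, 1.03 and 1.27 (limma adjusted p = 3.02e-06, 1.78e-05 and 1.67e-06). Macrophage markers, summed, stood at 351 to 500.1 in cKO libraries, and 103 to 118 in the controls on that scale, and 10 of 11 tested rose. Their part in these rises, and in that of Alox5ap, was not tested.

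Of the relatives of Acsl4 and Lpcat3, 4 of 11 tested rose and 3 fell on the median-gene scale (median 0.09), beside 20.8% of all tested genes each way. As deposited 8 rose and 0 fell (median 0.52). Acsl1, the main acyl-CoA synthetase of heart muscle for fuel use, had 149 ± 16.5 TPM in cKO hearts, and 176 ± 22.1 TPM in the control hearts, with overlap, and Lpgat1, an acyltransferase, had 16.01 ± 0.793 TPM in cKO hearts, and 16.4 ± 1.80 TPM in the control hearts, with overlap (SD, n = 5 each). On the scaled values both fell, by 0.98 and 0.72 (limma adjusted p = 1.18e-05 and 6.3e-06), whereas Lpcat2, an acyltransferase that makes platelet-activating factor, rose by 1.11 (limma adjusted p = 1.24e-05). Acsl1 thus moved the other way from Acsl4 relative to the median gene. Without the 3 cKO libraries with Xist, 1 of these relatives rose and 2 fell.

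**Figure D4:**
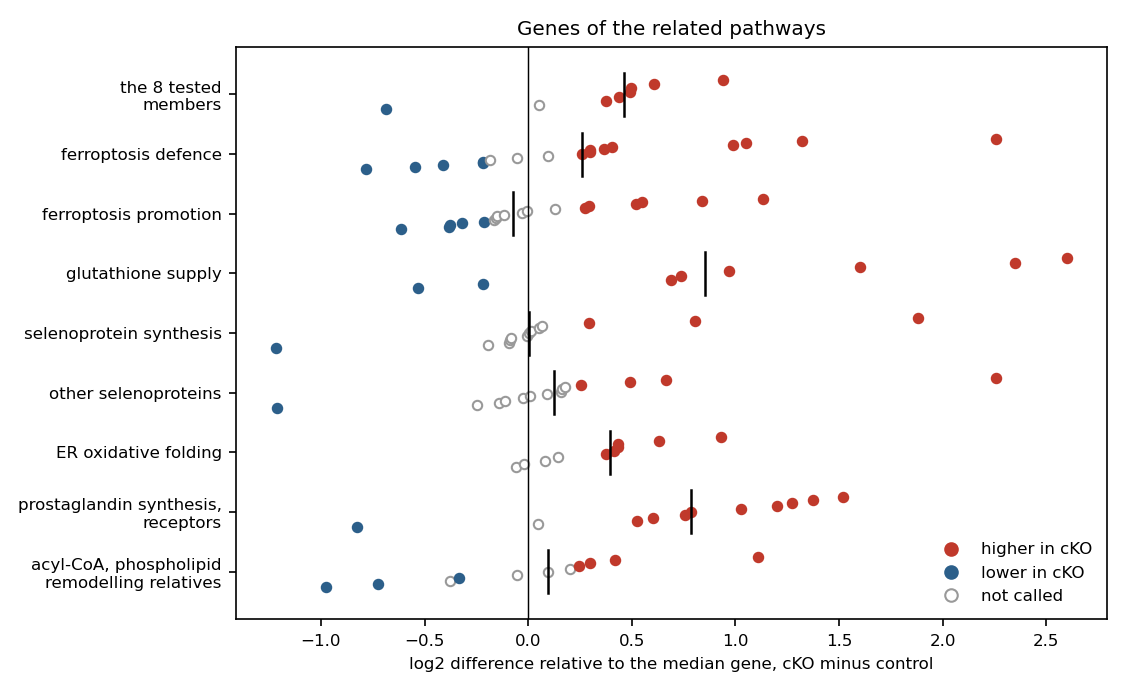
log2 difference relative to the median gene (cKO minus control) of every tested gene in the members and 8 related lists. Each point is a gene, red where called higher in cKO, blue where called lower and open where not called, and the black bar is the list median, which runs from -0.07 (ferroptosis promotion) to 0.86 (glutathione supply).

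Cell type markers differed between the groups in the same hearts. On the scaled values, cardiomyocyte markers fell in 8 of 8 (summed level 25950 to 33800 in cKO libraries, and 49490 to 52520 in the controls) and endothelial markers in 9 of 10 (345 to 453.5 in cKO libraries, and 576 to 637 in the controls). Fibroblast markers rose in 8 of 10 and fell in 1 (1927 to 2323 in cKO libraries, and 1354 to 1663 in the controls). Smooth muscle and pericyte markers rose in 2 and fell in 4 of 9 (725 to 1000 in cKO libraries, and 719 to 817 in the controls). As deposited, 3 of 8 cardiomyocyte markers fell and 0 rose, 1 of 10 endothelial markers rose and 0 fell (452 to 542 in cKO libraries, and 428 to 533 in the controls), 6 of 9 smooth muscle and pericyte markers rose and 0 fell, and all 10 fibroblast and 11 macrophage markers tested rose. Scaled neutrophil sums were 11.0 to 39.1 in cKO libraries, and 9.50 to 31.7 in the controls, and epicardial sums 3.14 to 5.74 in cKO libraries, and 7.22 to 11.1 in the controls. None of the markers in these lists was at 0 in all libraries, while Cd163 (macrophage), Ly6g, Cxcr2, Csf3r and Camp (neutrophil) and 6 of 7 epicardial markers averaged under 1 TPM. The part of these shifts in the changes of the 9 genes was not tested.

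For each tested member the 2 genes with the nearest profile over the 10 libraries were found among 11617 protein-coding genes, as the root mean square difference of log2(scaled TPM + 1) after centring. They were Perp and Fxyd6 for Gpx4 (0.09 and 0.10), Psmd12 and Chpf for Gpx1 (0.06 and 0.06), Gabarap and Gpi1 for Gpx3 (0.07 and 0.07), and Rpl22 and Commd6 for Gpx7 (0.07 and 0.08). For Gpx8 they were S100a11 and Fbxo36 (0.07 and 0.10), for Acsl4 G6pc3 and Nub1 (0.05 and 0.05), for Aifm2 Cobll1 and Jarid2 (0.10 and 0.13), and for Lpcat3 Ist1 and Pcbp2 (0.05 and 0.05). The members' own spread on that measure ran from 0.07 (Lpcat3) to 0.51 (Gpx4), so a small distance says little for Lpcat3. For the other members centring kept the difference between groups, so a near gene is largely one with a like difference. The nearest of 11617 genes is also close by selection, and shared regulation was not tested. No member was among the 2 nearest of another, which among 11617 candidates does not show whether the members moved together. The NRF2-type motif TGACNNNGC was sought on either strand in RefSeq promoter windows (GRCm38, 250 bases before to 50 after a start). It was in 0 of 12 windows of the 9 genes and in 12.4% of all 32851 windows. At that rate 0 of 12 is not unusual, and some windows of Gpx4 overlap. So few windows cannot show that these genes lack the motif, and sequence outside the windows was not searched.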

How the data were processed

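Per the labels' protocols, total RNA of 10 hearts went into libraries of the VAHTS Universal V10 type. The authors deposited 1 table of TPM, with 1 column per mouse, each closed to 1000000. The submitters' processing notes name STAR 2.7.1, HTSeq 0.11.2, DESeq2 1.22.2 and build mm10 among their tools, with no role or order. Annotation release, gene lengths and strand setting are not given in the sources used here. Depth is unknown. Gene IDs matched GENCODE M21 (GRCm38) without version for 92.1% of rows, and no symbol of a member repeated. No 2 libraries were identical.

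Values were tested as log2(TPM + 1) with limma 3.58.1 in R 4.3.3 (mean-variance trend, two-sided) over 13282 genes with at least 1 TPM in at least 5 of 10 libraries, as deposited and after median-of-ratios scaling over 16393 genes. The fit was run on simulated data in which a small part of the genes changed in either direction, with independent normal noise and no closed sum. Far more genes were called in these data, so that run does not show how the fit behaves on them. Single values used an exact permutation test over 252 splits. Members and lists were chosen with earlier results of these data known. Genes named were the members, up to 3 called genes with the smallest p per pathway list (mean of at least 1 TPM in either group), Chmp4b and the nearest profiles. Slc7a11, Selenop, Trnau1ap, Hpgd and the defence genes that fell were added after their values were seen. Overlapping genes, pseudogenes, other peroxidases and low markers are named beside what they touch. Lists covered ferroptosis defence and promotion, glutathione supply, selenoprotein synthesis, other selenoproteins, oxidative folding, prostaglandins, acyl-CoA and phospholipid relatives, other glutathione peroxidases and 7 sets of cell type markers; 1 further marker set is not reported here. Alternatives were the pseudocount, filter, scaling, variance model, library weights, a Ddx3y covariate, leaving out each library and, added after seeing the data, leaving out the 3 cKO libraries with Xist.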

Additional observations from a re-analysis of the deposited data

Results flagged for a closer look

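Of 140 groups of 5 libraries examined, 8 held a library far from the other 4 by Dixon's ratio, where chance flags about 1 in 20 groups. Gpx4 in cKO replicate 7 had 707 TPM, against 478 to 525 in the other cKO libraries, and 565 relative to the median gene, against 365 to 413. Gpx4 in control replicate 6 stood at 271 relative to the median gene, against 200 to 211.5 in the other controls. Control replicate 6 was also high for Gpx7, with 15.1 TPM against 7.98 to 9.91 and 17.9 relative to the median gene against 11.0 to 12.0, and for Hspb1, with 178.5 relative to the median gene against 153 to 158. Relative to the median gene, Acsl1 was low in control replicate 13, at 207 against 227 to 233, and Alox5ap was high in control replicate 9, at 4.37 against 3.03 to 3.38.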

How the results depend on the processing

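Leaving out any 1 library kept 7 members higher as deposited, and 5 to 6 higher and 1 lower relative to the median gene; of all genes, 9763 to 10171 were higher and 395 to 516 lower as deposited, and 2529 to 2712 higher and 2499 to 2756 lower relative to the median gene. Aifm2 as deposited was -0.059 with library weights and ran from -0.072 (without cKO replicate 1) to 0.095 (without cKO replicate 7) with 1 library left out, against 0.01 with all; Lpgat1 ran from -0.087 (without control replicate 13) to 0.016 (without control replicate 9). With TPM closed over genes that are not mitochondrially encoded, 6064 of 13264 tested genes were called higher and 1373 lower. Of the called genes alone, 81.5% were higher with that closure, against 95.7% as deposited and 50.0% on the median-gene scale. With the same closure the members were 7 higher and 1 lower. List falls were then 2 (defence), 1 (promotion) and 0 (glutathione supply), and list rises 7 (selenoprotein synthesis) and 10 (other selenoproteins). Without the 3 cKO libraries with Xist, 1673 genes were higher and 1804 lower relative to the median gene; defence rises were 5, promotion falls 2, glutathione supply falls 1 and acyl-CoA relatives' rises 1, and the log2 ratios Acsl4/Gpx4 and Gpx1/Gpx4 were -0.61 and -0.47. With the Ddx3y covariate defence rises were 5, promotion falls 2 and acyl-CoA relatives' rises 1. Ddx3y was present in 2 of 5 cKO and 5 of 5 control libraries, so this covariate partly follows the group. The share of all genes called with it is not given here, so these counts do not show an effect of sex on the lists. Glutathione supply falls were 1 with no filter, without trend and with upper-quartile scaling, and promotion falls 3 with no filter. With library weights, falls were 2 in both selenoprotein lists, and 1 among acyl-CoA relatives as deposited. Leaving out 1 library, falls ranged over 0 to 1 for defence and acyl-CoA relatives as deposited, and relative to the median gene over 3 to 5 for defence, 3 to 6 for promotion, and 1 to 2 for glutathione supply and both selenoprotein lists. Acyl-CoA relatives' rises ranged over 2 to 4, and the ratio Gpx7/Gpx8 over -0.26 to -0.11, called without cKO replicate 6 or control replicate 4 (exact permutation adjusted p = 0.0397 each). The causes were not tested. No paired analysis was possible because the groups share 1 replicate number. Depth is unknown, so no counting error is given for any gene.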
